A study of Homo sapiens with 6 samples.

Results

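The nuclear-encoded subunits of respiratory complexes II to V, together with the electron carrier cytochrome c, are described here across 6 Illumina BeadChip arrays of MDA-MB-231, a human breast cancer cell line of the triple-negative type. Members were the genes named SDHA to SDHD, those whose symbols begin with UQCR, COX4I, COX5, COX6, COX7, COX8 or ATP5, and CYC1 and CYCS. The array carried 73 probes for 50 such genes. Of these, 44 genes were detected (detection p below 0.01) on 2 or more arrays and were analysed, out of 10877 genes kept on the whole array. The probe with the highest mean signal stood for each gene. SDHB and UQCRFS1 were not analysed here.

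Cells of the first group stably over-expressed the tRNA gene chr1.trna5, a tRNA-Glu with anticodon TTC. Cells of the second stably over-expressed chr16.trna1, a tRNA-Arg with anticodon CCG. The control cells were mock-transfected, and each of the 3 groups had 2 arrays of total RNA. The vector, its promoter and whether a line was 1 clone or a pool are not given in the labels, and the probes described here do not measure the tRNAs. Whether paired arrays of a group stem from separate cultures is not stated, so p-values speak only to array-to-array spread, possibly technical in nature.

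Complex II passes electrons from succinate to ubiquinone and is also an enzyme of the TCA cycle. Complex III passes them on to cytochrome c, complex IV hands them to oxygen, and both pump protons across the inner mitochondrial membrane. Complex V, the ATP synthase, lets the protons flow back through a rotating ring of c subunits and uses the rotation to make ATP in its F1 head, while a peripheral stalk holds the head still. Cytochrome c released from mitochondria also activates caspases.

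Mean non-normalized intensity lay between 250.6 and 331.3 per array, and between 16650 and 17704 probes were detected. All 8 markers of the MDA-MB-231 line on the list used were above the detection filter. ESR1, PGR and CDH1, which this line is known to lack, were not, whereas EPCAM was. Of 14 markers of other cell types, 4 passed the filter. These were LAPTM5, PECAM1, KRT8 and KRT19. Their summed normalized level ranged over 2427 to 2550 on tRNA-Glu arrays and 1582 to 1615 on tRNA-Arg arrays, against 858 to 925 on control arrays. LAPTM5, KRT8 and KRT19 were higher in both lines, whereas PECAM1 was at -0.12 in the tRNA-Glu line and lower in the tRNA-Arg line, at -0.67 (adjusted p = 0.00425). Those that did not pass it included PTPRC, CD3E, HBB, CDH5, PDGFRB, DCN, LUM, GATA3 and KRT18. These sums, carried by LAPTM5, KRT8 and KRT19, were higher in both lines, as were most called members, and their part in the results was not tested. Whether these genes mark other cells or are expressed by the line itself was not tested either. In these bulk samples, a change in the mix of cells and a change in RNA per cell cannot be told apart.

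Promoter windows of RefSeq (build GRCh38.p14) were matched for 33 of the 44 members. They were searched on both strands for CCGGAAG, a motif bound by GABP, and for CGCNTGCGC, a motif bound by NRF1, because both factors are known regulators of respiratory chain genes. The windows of 4 genes are shown, those of ATP5ME and ATP5MJ, membrane subunits of ATP synthase that were higher in both lines, of ATP5MK from the same group of subunits, and of SDHD, the member that differed most between the lines. Each runs from 225 bases before the annotated start over the first 20 bases after it, 5′ to 3′ on the gene's strand, and capitals mark a match to either motif.
ATP5ME: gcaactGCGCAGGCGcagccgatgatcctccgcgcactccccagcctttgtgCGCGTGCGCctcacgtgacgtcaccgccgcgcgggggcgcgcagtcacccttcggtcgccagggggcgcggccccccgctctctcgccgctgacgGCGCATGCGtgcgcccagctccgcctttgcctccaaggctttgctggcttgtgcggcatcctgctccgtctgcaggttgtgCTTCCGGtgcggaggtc
ATP5MJ: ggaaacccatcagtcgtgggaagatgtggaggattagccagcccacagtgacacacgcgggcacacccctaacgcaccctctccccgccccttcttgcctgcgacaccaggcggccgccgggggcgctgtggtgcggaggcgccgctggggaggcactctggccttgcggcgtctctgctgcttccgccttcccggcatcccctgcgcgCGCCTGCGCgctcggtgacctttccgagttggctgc
ATP5MK: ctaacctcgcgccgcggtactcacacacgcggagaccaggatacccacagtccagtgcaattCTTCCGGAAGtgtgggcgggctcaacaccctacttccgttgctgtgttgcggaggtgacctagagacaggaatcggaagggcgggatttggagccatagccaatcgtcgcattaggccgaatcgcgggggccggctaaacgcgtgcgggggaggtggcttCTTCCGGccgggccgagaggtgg
SDHD: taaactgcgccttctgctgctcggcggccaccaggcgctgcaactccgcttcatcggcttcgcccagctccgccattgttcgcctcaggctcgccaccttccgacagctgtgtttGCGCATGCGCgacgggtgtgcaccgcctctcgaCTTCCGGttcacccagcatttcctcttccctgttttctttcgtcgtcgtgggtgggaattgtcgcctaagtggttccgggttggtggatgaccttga
The ATP5ME window lies at chr4:674257-674501 on the minus strand, that of ATP5MJ at chr14:103921510-103921754 on the minus strand, that of ATP5MK at chr10:103396456-103396700 on the minus strand, and that of SDHD at chr11:112086648-112086892 on the plus strand. ATP5ME and SDHD held both motifs, ATP5MJ held the NRF1 motif alone and ATP5MK the GABP motif alone. Matches to 1 motif on opposite strands overlapped in ATP5MK and in SDHD.

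Over the whole windows of 300 bases, the GABP motif was found in 14 of 33 member promoters (42.4%), against 20% of the promoters of genes tested and 10.7% of all promoters. The NRF1 motif was found in 12 of 33 (36.4%), against 15.5% of the promoters of genes tested and 8.05% of all promoters. The letters AAGATGGCG, a motif bound by YY1, were found in 2 of 33 (6.06%), against 4.03% and 1.85%. No match to one of these motifs overlapped a match to another in a member promoter. Of the 14 members with the GABP motif, 5 were higher and 1 lower in the tRNA-Glu line, with a median log2 difference of 0.21. Of the 19 members without it, 10 were higher and 2 lower, with a median of 0.31. In the tRNA-Arg line, 5 of 14 with the motif and 10 of 19 without it were higher. Of the 12 members with the NRF1 motif, 6 were higher and 2 lower in the tRNA-Glu line, with a median of 0.28, and of the 21 without it 9 were higher and 1 lower, with a median of 0.20. In the tRNA-Arg line, 4 of 12 with it and 11 of 21 without it were higher. These counts and medians include ATP5MK, which passed the detection filter through the arrays of the lines alone. It is counted as higher in both lines, with the GABP motif and without the NRF1 motif. Among all genes, 31.7% were called higher in the tRNA-Glu line and 22.8% in the tRNA-Arg line. The counts by motif are small, and no difference between members with and without a motif was tested. A match is a description of letters in a window and not of binding.

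Transcripts of the tRNA-Glu line were set against the mock control first. Of the 44 members, 22 were higher and 4 lower in tRNA-Glu cells at an adjusted p under 0.05 (limma, Benjamini-Hochberg over all genes), and 18 were not called. Among all genes tested, 31.7% were called higher and 27.8% lower. The members' share called higher was 50% and their share called lower 9.09%. The median log2 difference of the members was 0.23, that of all genes 0.04. No overlap between the groups' arrays was seen for 38 of 44 members, where 80.2% of all genes showed no overlap. The authors' deposited table of fold changes runs the other way, with the opposite sign for 40 of the 42 members it lists. The directions here come from the array labels.

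In the tRNA-Arg line, 23 members were higher and 2 lower than in control cells, and 19 were not called. Among all genes tested, 22.8% were called higher and 24.4% lower. The median log2 difference of the members was 0.23, against -0.02 over all genes. The arrays did not overlap for 33 of 44 members and for 74.6% of all genes. Both comparisons share the same 2 control arrays, so a control array that was low for a gene enters both. With those arrays shared, 19 members were called higher in both lines, and CYCS and ATP5MC3 were called lower in both. No member was called in opposite directions. Of all genes, 59.5% were called in the tRNA-Glu line and 47.2% in the tRNA-Arg line. The share of all genes called alike in both lines was not counted, so these joint counts have no share beside them. ATP5MG and UQCRB, among the 19, were not called when their probes were averaged. UQCRBP1, UQCRHL and ATP5F1EP2 are near-identical copies of UQCRB, UQCRH and ATP5F1E, and their signals are uncertain for that reason. Without these copies, 20 of 41 members were higher in tRNA-Glu cells and 21 of 41 in tRNA-Arg cells. The counts also include ATP5MK, which passed the detection filter through the arrays of the lines alone. Without it, 21 of 43 members were higher in tRNA-Glu cells and 22 of 43 in tRNA-Arg cells.

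**Figure D1:**
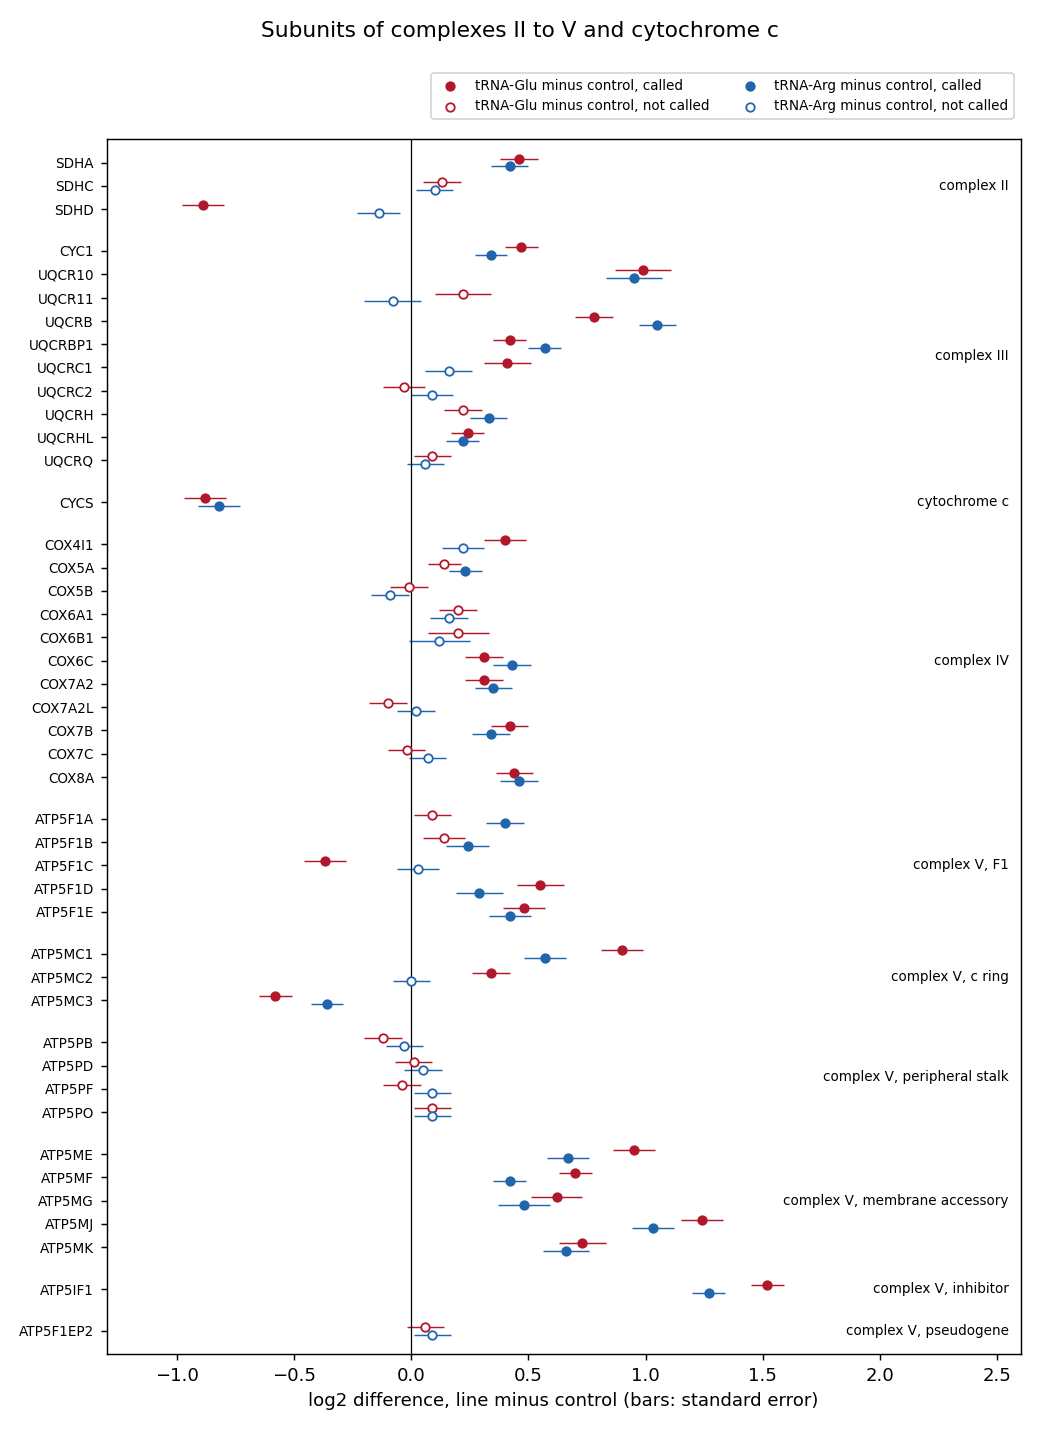
Log2 difference of each of the 44 members, tRNA-Glu minus control in red and tRNA-Arg minus control in blue, with the standard error of the limma fit as bars (2 arrays per group). Filled points passed an adjusted p of 0.05. ATP5IF1 lies farthest right at 1.52 and 1.27, and SDHD and CYCS farthest left in the tRNA-Glu line at -0.89 and -0.88. The 4 peripheral stalk genes lie close to 0 on the probes used. A second ATP5PB probe, not drawn here, was at -0.76 in the tRNA-Glu line.

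In complex II, the 3 measured subunits behaved differently. SDHD, a membrane anchor that helps to hold ubiquinone, had log2 intensities of 9.19 and 9.12 in tRNA-Glu cells and of 9.86 and 9.96 in tRNA-Arg cells, against 10.11 and 9.99 in control cells. Its tRNA-Glu arrays lay below all other arrays. It fell by 0.89 on the log2 scale (SE 0.09, adjusted p = 0.000148, limma) in the tRNA-Glu line, and its difference in the tRNA-Arg line was -0.14 (adjusted p = 0.223). SDHA, the flavoprotein that oxidises succinate, had 9.88 and 9.82 in tRNA-Glu cells and 9.83 and 9.79 in tRNA-Arg cells, against 9.31 and 9.47 in control cells. It was higher by 0.46 in the first line and by 0.42 in the second (adjusted p = 0.00273 and 0.00606), with no overlap of either line with control. The tRNA-Glu call of SDHA was lost when its probes were averaged (adjusted p = 0.0618). SDHC, the other membrane anchor, was not called on its brighter probe, at 0.13 and 0.10. Its second probe gave 0.37 in the tRNA-Glu line (adjusted p over all kept probes = 0.00763) and -0.04 in the tRNA-Arg line.

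In complex III, 6 of 10 members were higher in the tRNA-Glu line and 6 of 10 in the tRNA-Arg line, with medians of 0.32 and 0.27 and none lower. Of all genes, 31.7% and 22.8% were called higher and 27.8% and 24.4% lower. UQCRBP1 and UQCRHL, the copies of uncertain signal, are among the members called higher in both lines. The UQCRHL call was lost under 4 of 15 settings in the tRNA-Glu line and under 10 in the tRNA-Arg line. The tRNA-Glu call of UQCRBP1 was lost under median scaling. UQCR10, a small supernumerary subunit, had 7.89 and 8.14 in tRNA-Glu cells and 8.06 and 7.88 in tRNA-Arg cells, against 6.94 and 7.10 in control cells. The arrays of each line lay above both control arrays, and the fold was 1.99 in tRNA-Glu cells (adjusted p = 0.000343) and 1.93 in tRNA-Arg cells (adjusted p = 0.000735). CYC1, the haem-carrying subunit that hands electrons to cytochrome c, was higher by 0.47 and 0.34. The tRNA-Arg call of CYC1 was lost under median scaling and without tRNA-Arg replicate 2, with a highest adjusted p of 0.0679.

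UQCRB, a subunit near the ubiquinone site, had 7.19 and 7.29 in tRNA-Glu cells and 7.49 and 7.51 in tRNA-Arg cells, against 6.49 and 6.42 in control cells. Both lines lay above control, by 0.78 and 1.05 (adjusted p = 0.000176 and 9.55e-05). A second UQCRB probe went the other way, at -0.35 and -0.41 (adjusted p over all kept probes = 0.0112 and 0.00829), and the third gave -0.16 and -0.16. Averaged over its probes, UQCRB was not called in either line. The core subunits UQCRC1 and UQCRC2 differed by 0.41 and -0.03 in the tRNA-Glu line and by 0.16 and 0.09 in the tRNA-Arg line. The tRNA-Glu difference of UQCRC1 was called, while its difference between the lines, 0.24, was not (adjusted p = 0.0985). The call was lost without tRNA-Glu replicate 2 and without control replicate 2, with a highest adjusted p of 0.0651. UQCRQ, another small subunit, was not called in either line, at 0.09 and 0.06.

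CYCS, which encodes cytochrome c itself, had 6.06 and 6.05 in tRNA-Glu cells and 6.04 and 6.20 in tRNA-Arg cells, against 7.01 and 6.88 in control cells. All 4 line arrays lay below both control arrays, while the arrays of the 2 lines overlapped. CYCS fell by 0.88 (SE 0.09, adjusted p = 0.000194) in the tRNA-Glu line and by 0.82 (SE 0.09, adjusted p = 0.000478) in the tRNA-Arg line. These calls held under all 15 alternative settings run. No other CYCS probe was kept, so averaging of probes, 1 of these settings, could not change its values. Its non-normalized intensities were low, between 80.7 and 150.9, against array medians of 43.8 to 46.2. HCCS, the enzyme that attaches haem to cytochrome c, also fell in both lines, with differences of -0.98 and -0.77 (adjusted p = 7.71e-05 and 0.000375), which were -0.64 and -0.50 with its probes averaged. Of 10 measured genes on a list for apoptosis through cytochrome c, 5 were higher and none lower in the tRNA-Glu line, and 3 were higher and 1 lower in the tRNA-Arg line. The list mixes promoters and inhibitors of cell death, and BCL2L1, an inhibitor, was among the 5 (0.25, adjusted p = 0.0288). The shares higher were 50% and 30%, against 31.7% and 22.8% of all genes. APAF1, the scaffold that binds released cytochrome c, was higher by 0.86 and 0.45 (adjusted p = 0.00013 and 0.00343).

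**Figure D2:**
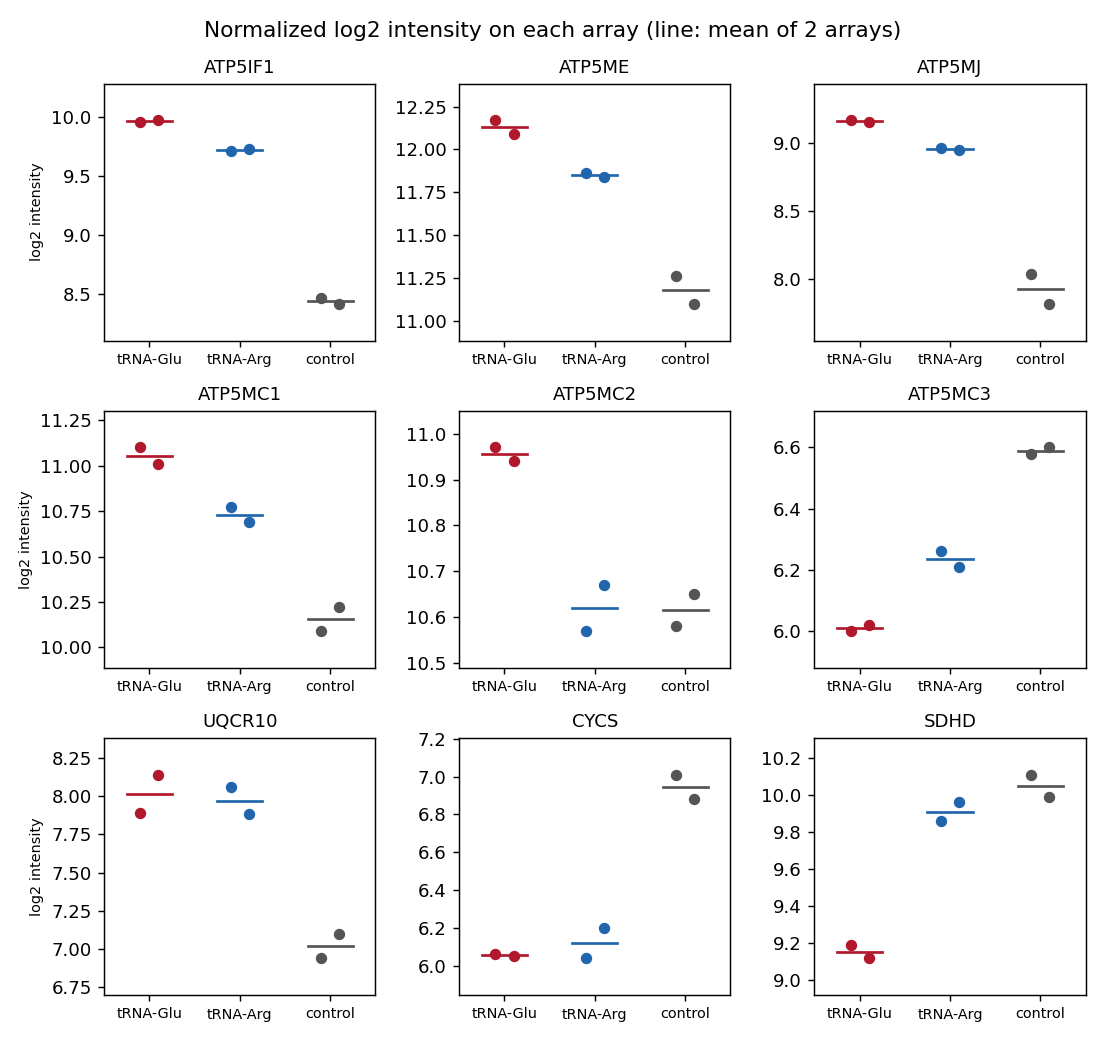
Normalized log2 intensity of 9 members on each array (points, 2 per group) with the group mean (line), tRNA-Glu left, tRNA-Arg in the middle and control right. The vertical axes differ between panels and do not start at 0. For CYCS all 4 line arrays lie at 6.20 or below, against 6.88 and 7.01 on the control arrays, whereas for SDHD the tRNA-Glu arrays alone lie apart.

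In complex IV, 5 of 11 members were higher in each line and none was lower, with medians of 0.20 and 0.22. The share higher, 45.5%, stood against 31.7% and 22.8% of all genes, of which 27.8% and 24.4% were lower. COX8A, a small membrane subunit, had 12.36 and 12.29 in tRNA-Glu cells and 12.40 and 12.27 in tRNA-Arg cells, against 11.89 and 11.87 in control cells. Every line array lay above both control arrays, and COX8A was higher by 0.44 and 0.46 (adjusted p = 0.00269 and 0.00354). COX6C, COX7A2 and COX7B were also higher in both lines, by 0.31 to 0.43. COX4I1, the ubiquitous isoform of the subunit through which ATP inhibits the enzyme, was higher in the tRNA-Glu line, at 0.40 (adjusted p = 0.00665), and not called in the tRNA-Arg line, at 0.22 (adjusted p = 0.0806). The difference between the lines for COX4I1 was 0.18 (adjusted p = 0.142).

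COX5A was called higher in the tRNA-Arg line, at 0.23, a call lost under 9 of 15 settings. It was at 0.14 in the tRNA-Glu line, and the difference between the lines was not called (-0.09, adjusted p = 0.324). COX5B, COX6A1, COX6B1, COX7C and COX7A2L, the last a factor that links complexes III and IV, were not called in either line. The tissue isoforms COX4I2, COX6A2, COX6B2, COX7A1, COX7B2 and COX8C were detected on none of the 6 arrays. The lowest detection p among their probes was 0.03636, for COX7B2. The COX6C call in the tRNA-Glu line was lost without tRNA-Glu replicate 1 and without control replicate 2 (highest adjusted p 0.0703), and the COX7A2 call without tRNA-Glu replicate 1 (0.0514). In the tRNA-Arg line the COX7A2 call was lost without tRNA-Arg replicate 1 (0.0519), and the COX7B call under median scaling and without tRNA-Arg replicate 2 (highest adjusted p 0.0689).

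In complex V, 10 of 19 members were higher and 2 lower in the tRNA-Glu line, and 11 were higher and 1 lower in the tRNA-Arg line, with medians of 0.34 and 0.29 (0.24 and 0.27 without ATP5MK). The shares higher were 52.6% and 57.9%, against 31.7% and 22.8% of all genes. Those lower were 10.5% and 5.26%, against 27.8% and 24.4%. ATP5IF1, the inhibitor that stops the ATP synthase from running backwards and consuming ATP, showed the highest difference of all 44 members. It had 9.96 and 9.97 in tRNA-Glu cells and 9.71 and 9.73 in tRNA-Arg cells, against 8.47 and 8.42 in control cells. The 3 groups did not overlap, and the fold over control was 2.86 in tRNA-Glu cells (SE 0.07 on the log2 scale, adjusted p = 1.47e-05) and 2.42 in tRNA-Arg cells (adjusted p = 3.24e-05). A second ATP5IF1 probe gave smaller differences in the same direction, 0.45 and 0.53, and the average of the probes was 0.99 and 0.90.

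The membrane subunits ATP5ME, ATP5MF, ATP5MG, ATP5MJ and ATP5MK sit beside the c ring, where they take part in the pairing of ATP synthases along the folds of the inner membrane. Of these, ATP5MK passed the detection filter through the arrays of the 2 lines alone and was not above background on 1 control array, so its differences of 0.73 and 0.66 are a description. The other 4 were called higher in both lines, with medians of 0.82 and 0.57, although the call of ATP5MG depended on the probe. ATP5MJ had 9.17 and 9.16 in tRNA-Glu cells and 8.97 and 8.95 in tRNA-Arg cells, against 8.04 and 7.82 in control cells. Its lines lay above both control arrays, at a fold of 2.35 (adjusted p = 5.38e-05) and 2.04 (adjusted p = 0.000198). ATP5ME had 12.17 and 12.09 in tRNA-Glu cells and 11.86 and 11.84 in tRNA-Arg cells, against 11.26 and 11.10 in control cells. It was higher by 0.95 and 0.67 (adjusted p = 0.000124 and 0.000905), and its second probe gave 1.08 and 0.84.

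ATP5MG was higher by 0.62 and 0.48 on its brighter probe, whereas its second probe was lower by the same test over all kept probes, at -0.58 and -0.61 (adjusted p = 0.00171 and 0.00239). Averaged over its probes, ATP5MG was not called in either line. ATP5MF was higher by 0.70 and 0.42, and its second probe gave 0.64 and 0.47.

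The 3 genes of the c ring encode the same mature protein with different import sequences, and they did not move together. ATP5MC1 had 11.10 and 11.01 in tRNA-Glu cells and 10.77 and 10.69 in tRNA-Arg cells, against 10.09 and 10.22 in control cells. ATP5MC3 had 6.0 and 6.02 in tRNA-Glu cells and 6.26 and 6.21 in tRNA-Arg cells, against 6.58 and 6.60 in control cells. ATP5MC1 lay above control in both lines, by 0.90 and 0.57 (adjusted p = 0.000145 and 0.00163), and ATP5MC3 lay below it, by -0.58 and -0.36 (adjusted p = 0.000474 and 0.00639). A second ATP5MC1 probe gave 0.24 in the tRNA-Glu line (adjusted p over all kept probes = 0.287) and 0.79 in the tRNA-Arg line, and the average of the probes was 0.57 and 0.68. ATP5MC2 was higher in the tRNA-Glu line, at 0.34 (adjusted p = 0.00755), and was at 0.00 in the tRNA-Arg line. The tRNA-Arg call of ATP5MC3 was lost under median scaling (adjusted p = 0.2). No other ATP5MC3 probe was kept, and its non-normalized intensities were low, between 79.1 and 129.9.

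In the F1 head, ATP5F1D and ATP5F1E, of the central stalk, were higher in both lines, by 0.55 and 0.48 in tRNA-Glu cells and by 0.29 and 0.42 in tRNA-Arg cells. A second ATP5F1D probe gave 0.98 and 0.46 in the 2 lines (adjusted p over all kept probes = 0.000133 and 0.00444). Between the lines it was at 0.52 (0.00442), where the probe used was not called, at 0.26. The subunits ATP5F1A and ATP5F1B were called in the tRNA-Arg line, at 0.40 and 0.24, and not in the tRNA-Glu line, at 0.09 and 0.14. The difference between the lines was called for ATP5F1A (-0.30, adjusted p = 0.0227) and not for ATP5F1B (-0.11, adjusted p = 0.342). A second ATP5F1A probe was not called in the tRNA-Arg line, at 0.24, or between the lines, at -0.17 (adjusted p over all kept probes = 0.0568 and 0.154). ATP5F1C, the shaft that turns within the head, had 10.50 and 10.51 in tRNA-Glu cells and 10.81 and 10.99 in tRNA-Arg cells, against 10.80 and 10.94 in control cells. Its tRNA-Glu arrays lay below the other 4, and it fell by 0.37 in that line (adjusted p = 0.0117), a call lost under median scaling and without tRNA-Glu replicate 1 or control replicate 2. The ATP5F1E call was lost under median scaling in both lines (adjusted p = 0.0652 and 0.0981). No other ATP5F1E probe was kept. The probes of its near-identical copy ATP5F1EP2 gave 0.06 and 0.21 in the tRNA-Glu line and 0.09 and 0.09 in the tRNA-Arg line. None of these was called, so the rise of ATP5F1E is uncertain. In the tRNA-Arg line the ATP5F1D call was lost under 7 settings and the ATP5F1B call under 9 of 15.

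None of the 4 peripheral stalk genes ATP5PB, ATP5PD, ATP5PF and ATP5PO was called in any comparison, with log2 differences between -0.12 and 0.09 in both lines. Of all genes, 59.5% were called in the tRNA-Glu line, 47.2% in the tRNA-Arg line and 42.6% between the lines. At an unadjusted limma p under 0.05 the count was 0 in each comparison as well, and no share of all genes was taken at that threshold. A second ATP5PB probe differed from the one used, at -0.76 in the tRNA-Glu line (adjusted p over all kept probes = 0.000673) and -0.20 in the tRNA-Arg line.

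**Figure D3:**
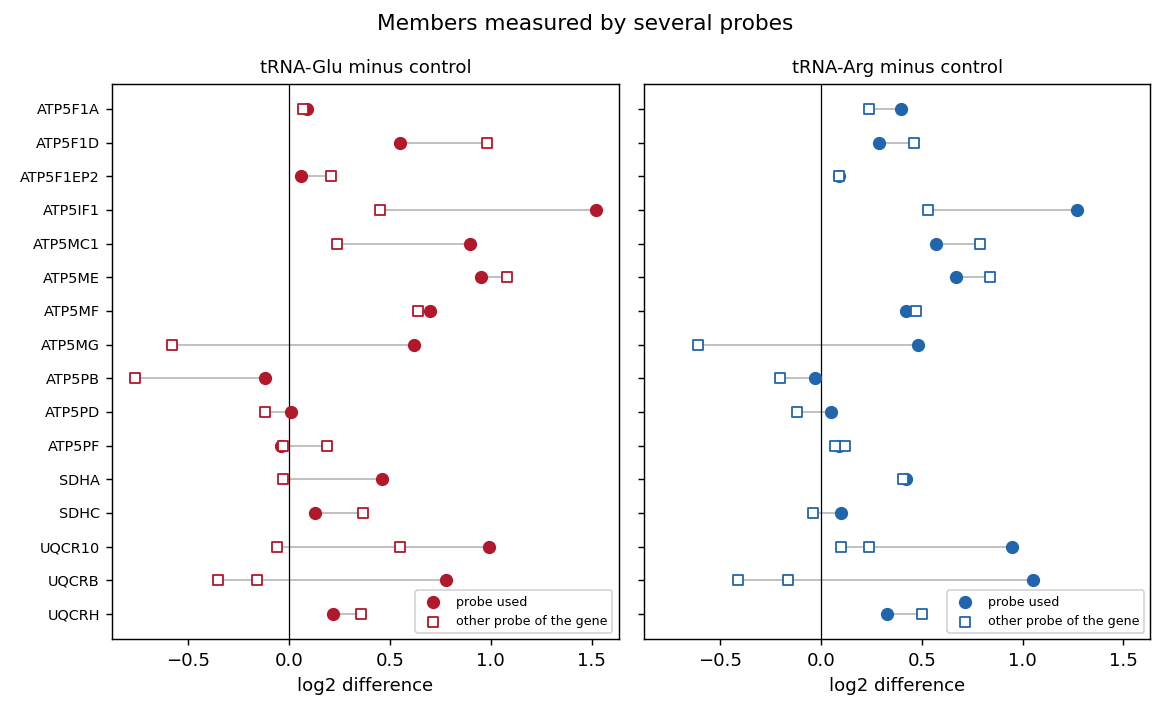
Log2 difference from control of every kept probe of the 16 members with several kept probes, tRNA-Glu left and tRNA-Arg right, with the brightest probe filled. The probes lie on both sides of 0 for 6 genes in the tRNA-Glu line and for 4 in the tRNA-Arg line. ATP5MG and UQCRB are the widest pairs across 0, and both probes of ATP5ME lie to the right.

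Several probes were kept for 16 members, and their differences carried unlike signs for 6 of 16 in the tRNA-Glu line, 4 in the tRNA-Arg line and 7 between the lines. Agreement was close for ATP5ME and ATP5MF. The plot of probes by gene shows wide gaps between probes of 1 gene, among them those of ATP5MG, UQCRB, UQCR10, ATP5PB, ATP5IF1, ATP5MC1 and, in the tRNA-Glu line, SDHA. The other UQCR10 probes gave 0.55 and -0.06 in the tRNA-Glu line and 0.24 and 0.10 in the tRNA-Arg line, and the average of its probes was 0.49 and 0.43.

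The lines were then compared with each other. Of the 44 members, 5 were higher and 5 lower in tRNA-Glu than in tRNA-Arg cells and 34 were not called. Among all genes tested, 24.3% were called higher and 18.2% lower. The members' median was 0.03, that of all genes 0.05. The arrays did not overlap for 29 of 44 members and for 74.1% of all genes. Of the 19 complex V members 8 were called (42.1%), close to the 42.6% of all genes tested. ATP5MC1, ATP5MC2, ATP5ME, ATP5MF and ATP5IF1 were higher in tRNA-Glu cells, by 0.24 to 0.34. For ATP5MC1 the direction turned with the probe, since its second probe was at -0.55 (adjusted p over all kept probes = 0.0466) and the average at -0.11. ATP5F1A, ATP5F1C, ATP5MC3, UQCRB and SDHD were lower. The second ATP5F1A probe, at -0.17, was not called.

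SDHD differed most between the lines, at -0.76 (SE 0.09, adjusted p = 0.00144), and its 2 tRNA-Glu arrays lay below both tRNA-Arg arrays. It was the 1 call of 10 that held under all 15 settings. No other SDHD probe was kept, so averaging of probes could not change its value. Under median scaling no member was higher and 1, SDHD, was lower. Calls were fewer over the whole array there, with 5.14% of all genes higher and 7.1% lower, against 24.3% and 18.2% in the main fit. Fewer of all genes were also called when an array of a line was left out. Over all 15 settings the SDHD difference ranged from -0.81 to -0.70.

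Complex I, which feeds electrons into the same chain from NADH, was read from a list of its subunits. Of 33 measured, 19 were higher and 4 lower in the tRNA-Glu line, and 14 were higher and 2 lower in the tRNA-Arg line, with medians of 0.30 and 0.22. In the tRNA-Glu line these were 57.6% and 12.1%, against 31.7% and 27.8% of all genes. In the tRNA-Arg line they were 42.4% and 6.06%, against 22.8% and 24.4%. NDUFB1, a small membrane subunit, was higher by 0.95 and 0.67 (adjusted p = 0.000164 and 0.00127). Its control levels were low, at 4.86 and 5.07, and it was not kept when detection on all arrays was asked for. Without background correction its tRNA-Glu difference was 0.62. The plot of shares called sets complexes I to V beside all genes.

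**Figure D4:**
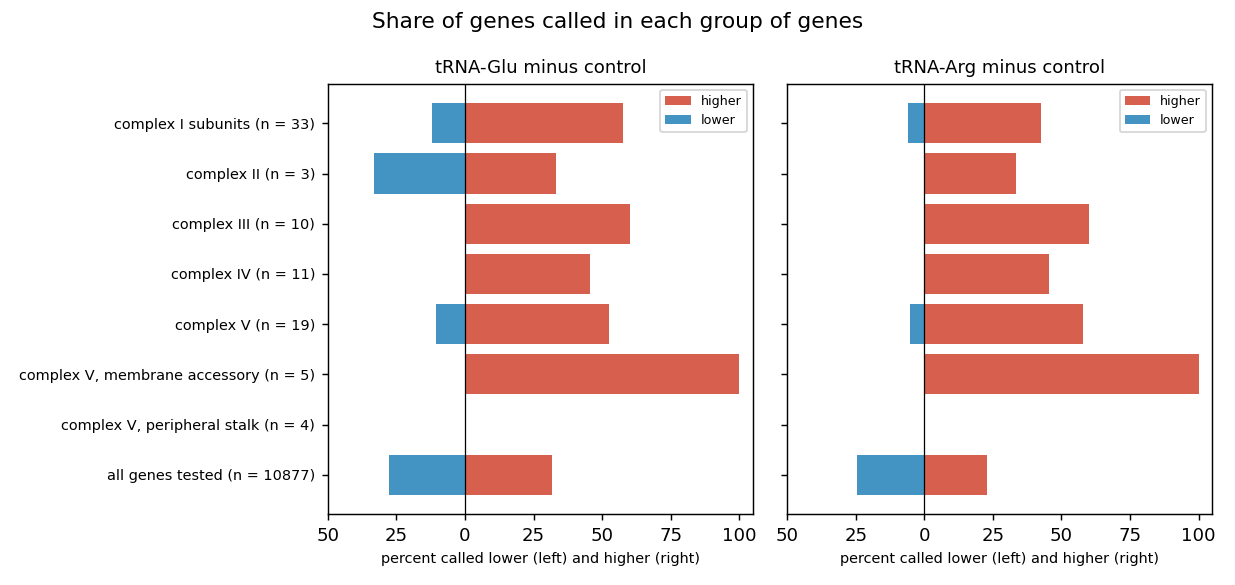
Percent of measured genes called higher (red, to the right) and lower (blue, to the left) in the tRNA-Glu line (left panel) and the tRNA-Arg line (right panel), each against control, with the number of genes in brackets. For all genes the 2 directions are of like size, 31.7% and 27.8% in the tRNA-Glu line. Complex III has 60% higher and none lower in both lines. Its bars include the copies UQCRBP1 and UQCRHL, of uncertain signal, and UQCRB, not called when its probes are averaged. The bar of the 5 membrane accessory genes of complex V includes ATP5MK, kept through the lines' arrays alone. It also includes ATP5MG, not called when its probes are averaged.

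Factors that assemble these complexes were read from lists of their own. Of 24 measured assembly factors of complex IV, 10 were higher and 4 lower in the tRNA-Glu line, and 8 were higher and 4 lower in the tRNA-Arg line. In the tRNA-Glu line these were 41.7% and 16.7%, against 31.7% and 27.8% of all genes. In the tRNA-Arg line they were 33.3% and 16.7%, against 22.8% and 24.4%. COX17, the copper chaperone, was higher by 0.60 and 0.52, and COX20, which helps to mature a mitochondrially encoded subunit, was lower in both lines, at -0.55 and -0.55. Of 7 for complex III, 2 were higher and 3 lower in the tRNA-Glu line, and 1 was higher and 2 lower in the tRNA-Arg line. Of 4 for ATP synthase, none was higher in either line, 1 was lower in the tRNA-Glu line and 3 in the tRNA-Arg line. FMC1, among those 3, was at -0.42 on its brightest probe and at 0.45 (adjusted p = 0.00218) when its probes were averaged. TMEM70, which helps to build the c ring, was lower in both lines, at -0.41 and -0.47 (adjusted p = 0.00461 and 0.00379). Of 4 for complex II, 2 were higher and 1 lower in the tRNA-Glu line. SDHAF3, which helps iron-sulfur insertion, was lower there, at -0.55 (adjusted p = 0.000658). With 4 to 7 genes each, the lists for complexes II and III and ATP synthase are too short to set their shares against those of all genes.

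Of 18 measured regulators of respiratory chain genes, 1 was higher and 6 lower in the tRNA-Glu line, and 1 was higher and 4 lower in the tRNA-Arg line. The shares lower, 33.3% and 22.2%, were close to those of all genes, 27.8% and 24.4%. The share higher was 5.56% in each line, against 31.7% and 22.8% of all genes. GABPA, the DNA-binding subunit of GABP, fell by 1.98 and by 1.14 (adjusted p = 5.39e-05 and 0.000898). GABPB1, its partner, fell by 0.58 in the tRNA-Glu line (adjusted p = 0.00158; 0.098 with its probes averaged) and was at 0.20 in the tRNA-Arg line, where it was not called (0.38, adjusted p = 0.0147, with its probes averaged). PPARGC1A, a coactivator of mitochondrial gene expression, was higher by 0.98 and 0.41 (adjusted p = 0.000148 and 0.00997), and PPRC1, a related coactivator, was lower, at -0.26 and -0.55. TFAM, which packages mitochondrial DNA, was at -0.21 (adjusted p = 0.0377) and -0.20 (adjusted p = 0.0542). PPARGC1B, ESRRA and YY1 were called in neither line against control, and NRF1 did not pass the detection filter. Of the TCA cycle genes, 8 of 19 were higher and 4 lower in the tRNA-Glu line, and 5 were higher and 1 lower in the tRNA-Arg line. The shares higher were 42.1% and 26.3%, against 31.7% and 22.8% of all genes. Those lower were 21.1% and 5.26%, against 27.8% and 24.4%. Of the carriers and import factors, 10 of 28 were higher and 7 lower in the tRNA-Glu line, and 9 were higher and 2 lower in the tRNA-Arg line. In the tRNA-Glu line the shares of the carriers and import factors, 35.7% and 25%, were near those of all genes, 31.7% and 27.8%. In the tRNA-Arg line they were 32.1% and 7.14%, against 22.8% and 24.4%.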

How the data were processed

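The authors' bead-level summaries, per the file headers, are non-normalized intensity values with a detection p-value for 47323 probes on each of 6 arrays. A table of processed intensity values of these arrays was also deposited. The authors' deposited fold changes per gene, a score here, have no stated sign or scale. Per the submitters' processing notes, lumi was used, with no version. The genome build of the probe annotation is not given in the sources used here.

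Intensities were corrected for background by the neqc function (limma 3.58.1, R 4.3.3; offset 16, background from the detection p-values), quantile normalized and taken to log2. Probes were kept at a detection p under 0.01 on at least 2 arrays (18106 probes, 14337 with 1 named gene). Symbols were updated through RefSeq gene identifiers. One limma fit covered 10877 genes in 3 groups of 2 arrays, with Benjamini-Hochberg adjustment over all genes and calls at an adjusted p under 0.05. A detection p of 0.05 or more counted as not above background. Precision is limited by the number of arrays. The model was tested on simulated data.

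The members and gene lists were chosen with earlier results of these data known. Named are the 8 largest called rises and falls per comparison, complex II, CYC1, CYCS, isoform families, ATP5IF1, up to 4 called genes per other list and 9 set regulators, and further members were named to account for each complex. Alternatives covered background, normalization, filter, probe choice, the authors' processed values, variance trend, a replicate block, a size threshold and each array left out. Levels of different probes were not compared, but those of 4 markers of other cell types were summed.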

Additional observations from a re-analysis of the deposited data

Results flagged for a closer look

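Between the lines, 10 members differed by the test of that difference itself (limma, adjusted over all genes; 2 arrays per group). Higher in tRNA-Glu than in tRNA-Arg cells were ATP5MC2 by 0.34 on the log2 scale (adjusted p = 0.0132), ATP5MC1 by 0.32 (0.0202), ATP5ME by 0.28 (0.0363), ATP5MF by 0.28 (0.0201) and ATP5IF1 by 0.24 (0.0316). Lower were SDHD at -0.76 (0.00144), ATP5F1C at -0.40 (0.0132), ATP5F1A at -0.30 (0.0227), UQCRB at -0.27 (0.0302) and ATP5MC3 at -0.23 (0.0412). Apart from SDHD, each of these calls was lost under between 3 and 12 of the 15 alternative settings.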

How the results depend on the processing

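The direction of the members' median against control was positive under every setting run. Under median scaling the medians were 0.43 (tRNA-Glu), 0.36 (tRNA-Arg) and 0.03 (between the lines), against 0.08, 0.04 and 0.03 over all genes. The tRNA-Arg counts were 15 higher and 1 lower, and those between the lines 0 and 1. Of all genes, 12.3% and 8.72% were then called higher and lower in the tRNA-Arg line, and 5.14% and 7.1% between the lines. With cyclic loess the medians were 0.22, 0.19 and 0.01. Averaging the probes of each gene gave 0.22, 0.19 and 0.01. With the authors' processed values they were 0.22 and 0.22 against control, with probes detected on all arrays 0.22 and 0.22, and with no filter 0.21 and 0.17. At 1.5-fold or more the counts higher and lower were 9 and 2 in the tRNA-Glu line, 6 and 1 in the tRNA-Arg line, and 0 and 1 between the lines. An intensity trend gave 9 members higher between the lines, where 26.9% of all genes were called higher. With 1 array left out, the median ranged from 0.23 to 0.30 in the tRNA-Glu line, from 0.20 to 0.27 in the tRNA-Arg line and from -0.03 to 0.03 between the lines, turning negative without tRNA-Arg replicate 2. Between the lines, fewer of all genes were then called than with all 6 arrays. These medians were set against a spread between arrays of 0.0040. Over the 4 pairs of arrays, which share arrays, the medians ranged from 0.22 to 0.32 in the tRNA-Glu line and from 0.21 to 0.30 in the tRNA-Arg line. With probes averaged, FMC1 was at 0.45 in the tRNA-Arg line, against -0.42 with its brightest probe, and ATP5MC1 at -0.11 between the lines, against 0.32. The cause of these shifts was not tested. Same-numbered arrays did not deviate together in the normalized values (correlations of -0.03, 0.02 and -0.05). Quantile normalization removes array-wide shifts, so this check cannot settle whether the numbers pair the samples. In every group more probes were detected on replicate 1 than on replicate 2. With a replicate block, 22 members were higher and 4 lower in the tRNA-Glu line, 20 and 2 in the tRNA-Arg line, and 5 and 4 between the lines. Of the calls, 15 of 26, 12 of 25 and 1 of 10 held under all 15 settings. The 2 arrays per group limit what can be detected.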
